A study of Homo sapiens with 23 samples.

Results

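The genes that encode histone acyltransferases were examined for acyl marks on their own chromatin. The set held 10 of the 20033 protein-coding genes of GENCODE 44, and it was chosen by name: EP300 and CREBBP, KAT2A and KAT2B, KAT5, KAT6A, KAT6B, KAT7 and KAT8, and HAT1. For each gene the window was the annotated body with 1 kb on both sides, and every deposited region that shared at least 1 bp with the window was counted. All 10 genes held a region in at least 1 immunoprecipitated library, and no filter removed any of them.

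Histone acyltransferases transfer an acyl group from a coenzyme A donor to a lysine of a histone tail. EP300 and CREBBP are large paralogous coactivators that are known to acetylate H3K18 and to use propionyl-CoA and butyryl-CoA as well as acetyl-CoA. KAT2A (GCN5) and KAT2B (PCAF) are the paralogous catalytic subunits of the SAGA and ATAC coactivators. KAT5 (TIP60), KAT6A (MOZ), KAT6B (MORF), KAT7 (HBO1) and KAT8 (MOF) form the MYST family and work inside larger complexes, and HAT1 acetylates newly made H4, H4K12 included, before it is deposited on DNA. The marks measured here are thus of the kind that these enzymes write. Acetylation of promoters and enhancers is a known mark of active chromatin, while less is known about propionylation and butyrylation.

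The cells were SW480, an established human colorectal cancer line of epithelial origin, and the assay was chromatin immunoprecipitation with sequencing (ChIP-seq), in which an antibody to a mark pulls down the DNA that carries it. Sodium propionate (NaPr) was added at 10 mM and sodium butyrate (NaBu) at 1 mM, for 12 to 16 h. After NaPr, chromatin was probed for H3K18pr and H4K12pr, the propionyl marks, and after NaBu for H3K18bu and H4K12bu, the butyryl marks. H3K18ac and H4K12ac, the acetyl marks, were probed after either salt and in untreated cells. This gave 20 immunoprecipitated libraries in 10 groups of 2 replicates, and 3 inputs of sheared chromatin taken before immunoprecipitation, 1 for each condition. The labels do not say whether replicates were separate cultures, so the spread between them may be technical. No propionyl or butyryl library of untreated cells was analysed here.

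The immunoprecipitated lists held 8158 to 208823 regions and the inputs 30386 to 93923. Regions cover where signal passed the caller's threshold (p of 0.01), not how strong it was, so a longer list covers more of a window. Depth recovered from the lists was 3.38 to 8.38 fragments per kb of genome in the propionyl libraries, 24.1 to 38.6 in the NaPr acetyl libraries and 11.2 to 38.5 in the untreated acetyl libraries, and it could not be recovered for NaBu. The shortest region, which follows the fragment length set in the caller, was 340 to 350 bp in the propionyl libraries and 180 to 230 bp in the NaPr acetyl libraries. Run tags in the names of the lists divide the libraries into 3 batches: propionyl with the NaPr input, NaPr and untreated acetyl with the untreated input, and everything from NaBu. Batch thus cannot be told apart from the acyl group in propionyl against acetyl, nor from treatment in NaBu against untreated. The content of one library was in doubt. H3K18ac NaPr replicate 1 overlapped the lists of H3K18ac untreated replicate 1 and H4K12ac untreated replicate 1 (Jaccard index, shared over united bp, 0.332 and 0.314) more than that of its own replicate (0.202), and it held 212 regions over the 10 genes where its replicate held 28. The comparisons over both sites or all strata are given with and without it. Unless stated, the average profile, the division by distance from the start, the start-site and single-region counts and the alternative settings include it. As a check of the cell line, the epithelial genes KRT8 and KRT18 had a region within 500 bp of their start in 20 of 20 immunoprecipitated libraries, and 6 of 9 epithelial markers had one in at least 10. CDX1 and LGALS4, markers of intestinal epithelium, had one in 2 and 1 libraries. Among 8 markers of other cells, PTPRC, CD3E, HBB and ALB had none, while COL1A1 had one in 11 libraries and ACTA2 in 10.

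The promoters of 6 of the genes are printed to span promoters that a region overlapped in 15 (KAT5) to 1 (KAT2B) of the 20 libraries. RefSeq promoters (GRCh38.p14, 250 bases before to 50 after the RefSeq start) were found for 8 of the 10 genes, all but KAT6A and KAT8. Capitals mark matches, on either strand, to 5 motifs, with overlapping matches each counted. The GC box was searched as GGGCGG and the CCAAT box by its own letters. The ETS motif was searched as CCGGAAG and the YY1 core as AAGATGG. The AP-1 motif was searched as TGANTCA, where N is any base. EP300 lies at chr22:41092342-41092641 on the plus strand, CREBBP at chr16:3880664-3880963 on the minus strand, KAT2B at chr3:20040196-20040495 on the plus strand, KAT5 at chr11:65712002-65712301 on the plus strand, KAT7 at chr17:49788431-49788730 on the plus strand and HAT1 at chr2:171922211-171922510 on the plus strand.
EP300: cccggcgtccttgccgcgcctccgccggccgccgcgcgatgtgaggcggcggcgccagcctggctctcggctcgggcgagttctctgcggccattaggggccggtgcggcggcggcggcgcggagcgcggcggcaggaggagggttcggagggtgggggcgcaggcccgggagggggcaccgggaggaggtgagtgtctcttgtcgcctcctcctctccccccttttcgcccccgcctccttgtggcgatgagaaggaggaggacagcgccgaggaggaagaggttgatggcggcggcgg
CREBBP: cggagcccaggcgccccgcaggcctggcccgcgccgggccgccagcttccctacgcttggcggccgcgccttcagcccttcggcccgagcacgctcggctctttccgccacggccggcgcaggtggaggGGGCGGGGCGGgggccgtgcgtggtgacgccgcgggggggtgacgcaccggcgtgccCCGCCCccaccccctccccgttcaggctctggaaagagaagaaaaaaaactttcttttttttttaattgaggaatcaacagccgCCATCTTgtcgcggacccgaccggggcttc
KAT2B: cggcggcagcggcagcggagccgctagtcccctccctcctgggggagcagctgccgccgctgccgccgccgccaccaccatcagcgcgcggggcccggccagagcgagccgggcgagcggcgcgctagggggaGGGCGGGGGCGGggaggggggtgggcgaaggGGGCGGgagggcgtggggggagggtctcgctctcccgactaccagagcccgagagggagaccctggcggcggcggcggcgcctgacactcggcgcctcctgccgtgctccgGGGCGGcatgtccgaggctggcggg
KAT5: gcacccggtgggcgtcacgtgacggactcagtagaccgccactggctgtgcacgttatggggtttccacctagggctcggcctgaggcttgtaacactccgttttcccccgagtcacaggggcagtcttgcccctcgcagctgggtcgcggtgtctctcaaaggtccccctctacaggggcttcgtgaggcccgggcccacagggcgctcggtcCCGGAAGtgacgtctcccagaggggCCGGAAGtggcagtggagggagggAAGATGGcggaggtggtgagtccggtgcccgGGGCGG
KAT7: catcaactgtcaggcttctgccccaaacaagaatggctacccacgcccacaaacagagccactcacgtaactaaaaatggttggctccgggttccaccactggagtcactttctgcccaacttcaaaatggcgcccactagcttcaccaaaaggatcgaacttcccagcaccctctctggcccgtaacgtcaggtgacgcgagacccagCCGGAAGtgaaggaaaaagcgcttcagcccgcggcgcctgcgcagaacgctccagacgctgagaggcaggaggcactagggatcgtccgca
HAT1: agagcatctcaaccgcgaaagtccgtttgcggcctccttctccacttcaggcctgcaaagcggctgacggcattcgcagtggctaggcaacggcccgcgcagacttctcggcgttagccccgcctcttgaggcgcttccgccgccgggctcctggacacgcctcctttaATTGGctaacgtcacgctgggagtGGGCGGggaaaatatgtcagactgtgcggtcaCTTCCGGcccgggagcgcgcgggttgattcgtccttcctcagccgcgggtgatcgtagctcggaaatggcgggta

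All 8 promoters held more CpG dinucleotides than the median of 14 over 35116 RefSeq promoters. The count was 40 in EP300 and KAT2B, 36 in CREBBP, 33 in HAT1, 29 in KAT6B, 23 in KAT5, 19 in KAT7 and 18 in KAT2A. Occupancy did not follow this order. Regions overlapped the 300 bases in 15 of 20 immunoprecipitated libraries at KAT5, 12 at EP300, 12 at KAT7 and 9 at HAT1, but in 1 at KAT2B and none at KAT2A. A GC box stood in CREBBP (3 matches), KAT2B (4), KAT5, KAT6B and HAT1 (1 each), and in 45.0% of all promoters. The ETS motif matched at 2 places in KAT5 and 1 each in KAT7 and HAT1, against 10.3% of all promoters, and the YY1 core matched in CREBBP and KAT5, against 5.84%. CCAAT matched in HAT1 alone (34.6% of all promoters), and the AP-1 motif in none of the 8 (7.71%). These matches describe the letters of the windows only.

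In all, 1398 regions overlapped the 10 windows over the 20 immunoprecipitated libraries. HAT1 and KAT2B held a region in 17 libraries, CREBBP, KAT5 and KAT8 in 16, KAT6A, KAT6B and KAT7 in 15, EP300 in 14 and KAT2A in 13. The share of the window covered differed more: the median over the 20 libraries was 12.1% at KAT5, 3.54% at KAT2A, 3.43% at KAT8, 2.87% at HAT1, 2.26% at KAT7 and 2.05% at EP300, and it lay between 0.453% and 1.17% at KAT2B, CREBBP, KAT6B and KAT6A. Windows differ in length, from 9.61 kb at KAT5 to 209.7 kb at KAT6B, so a region at the start weighs more in a short one. Some windows also hold other genes, and a region there cannot be assigned to one of them: SLC25A12 spans 100% of the HAT1 window on the other strand, RNASEH2C most of the KAT5 window, and the start of FAM117A lies 556 bp inside KAT7 on the other strand.

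**Figure D1:**
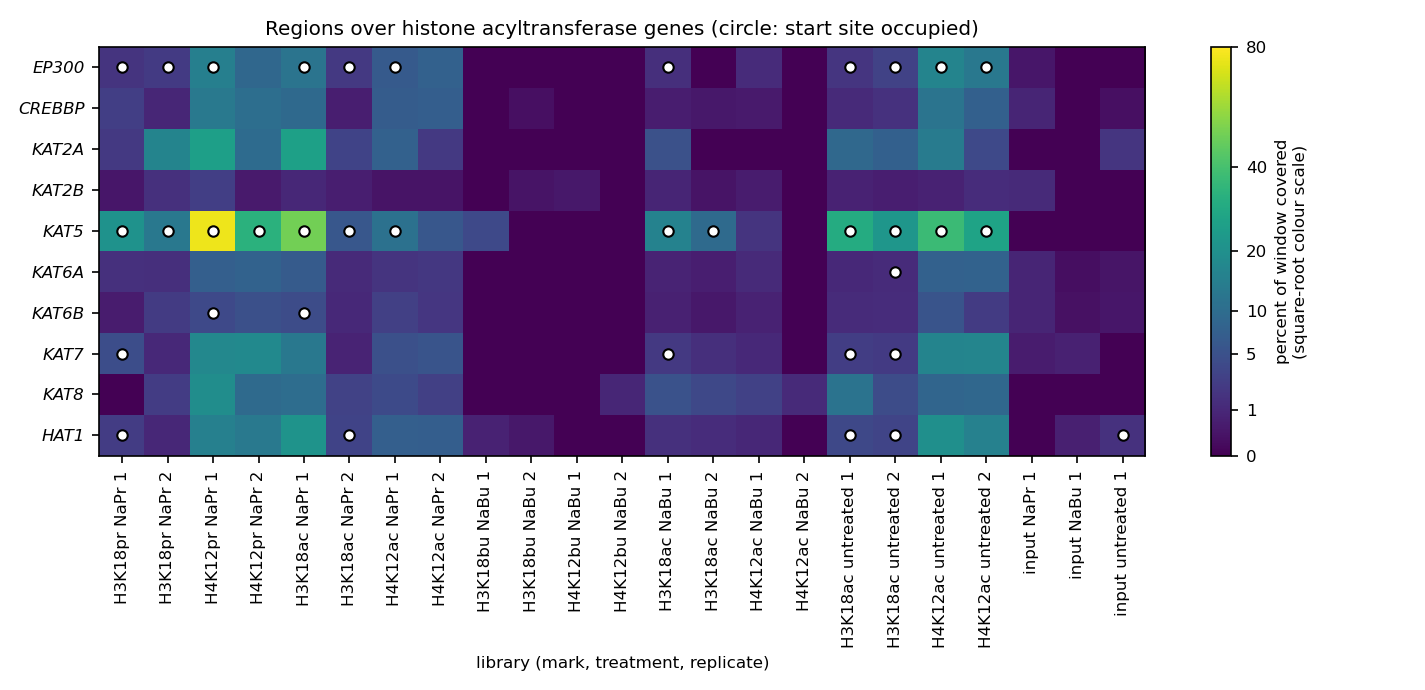
Percent of each gene window covered by regions (colour, square-root scale) in each of the 23 libraries, with a circle where a region overlapped the annotated start. KAT5 is covered most, up to 76.0% in H4K12pr replicate 1, the 4 butyryl columns are nearly empty, and KAT2B stays at or below 2.81% throughout.

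EP300 was occupied at its start in 11 of 20 libraries and held some of the strongest regions of the set. In untreated cells its start was covered in both H3K18ac and both H4K12ac libraries. The best region, whose summit position ran from −715 to −673 bp from the start, was at rank 3.75% and 0.397% of the H3K18ac lists and 1.47% and 0.447% of the H4K12ac lists, ranked by the caller's p-value. The fold over background of that region was 27.9 and 31.2 for H3K18ac but 7.34 and 11.4 for H4K12ac. In NaPr cells the H3K18pr libraries also covered the start. Their best region was at rank 20.1% and 15.5%, with a fold of 6.62 and 6.23. In replicate 2 that region ended 337 bp before the start, and the region over the start had a fold of 3.64 at rank 47.7%. The EP300 window was covered to 1.79% and 2.35% by H3K18pr, 14.9% and 8.86% by H4K12pr, 11.7% and 2.19% by H3K18ac NaPr, and 6.39% and 7.79% by H4K12ac NaPr. In untreated cells it was covered to 1.90% and 3.07% by H3K18ac and to 16.4% and 12.7% by H4K12ac. H4K12 libraries thus lay above H3K18 libraries in the propionyl and untreated groups, while in NaPr acetyl the doubtful replicate 1 exceeded both H4K12ac libraries. Of the 212 summits over EP300, 81.6% fell in introns, which make up 84.7% of the window.

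A further region lay upstream of EP300 and just outside the window, and was chosen after its values were seen. It held no GENCODE gene and was present in 14 of 20 immunoprecipitated libraries and in 0 of 3 inputs. All 4 NaBu acetyl libraries had it, with a fold of 16.0 and 8.84 for H3K18ac and 9.97 and 4.35 for H4K12ac, as did all 4 untreated acetyl libraries (15.5 and 8.22, 6.41 and 6.43). In NaBu cells the start itself was covered in 1 of these 4 libraries. H3K18bu replicate 1 also held a region there, with a fold of 3.22 at rank 70.5% of its list, while its window held none. The 300 bases centred on the median summit, at chr22:41091112-41091411 of hg38, lie from −1480 to −1181 bp from the start of EP300, are 60% G and C, and hold 1 GC box, in capitals, and none of the other motifs.
EP300 upstream: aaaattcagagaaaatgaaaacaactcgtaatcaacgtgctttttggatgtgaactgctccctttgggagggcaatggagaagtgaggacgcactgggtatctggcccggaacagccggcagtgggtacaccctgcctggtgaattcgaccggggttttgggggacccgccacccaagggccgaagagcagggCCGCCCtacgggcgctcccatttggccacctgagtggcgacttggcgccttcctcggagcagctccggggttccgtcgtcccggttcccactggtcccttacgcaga

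CREBBP, the paralogue of EP300, had no region over its start in any library, although 9 of 20 had one within 500 bp. The nearest regions began upstream: in untreated cells the best H4K12ac regions had their summit at −537 and −552 bp from the start, with a fold of 5.94 and 7.41. The window was covered to 2.71% and 0.940% by H3K18pr and to 13.1% and 10.4% by H4K12pr. In untreated cells H3K18ac covered 1.10% and 1.63% and H4K12ac 11.8% and 7.57%. In NaPr cells H4K12ac covered 6.71% and 7.11%, and H3K18ac 9.28% in the doubtful replicate 1 and 0.585% in replicate 2. H4K12 libraries were higher than H3K18 libraries in the propionyl and untreated groups, as at EP300, and 92.8% of the 320 summits fell in introns, which make up 88.9% of the window.

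**Figure D2:**
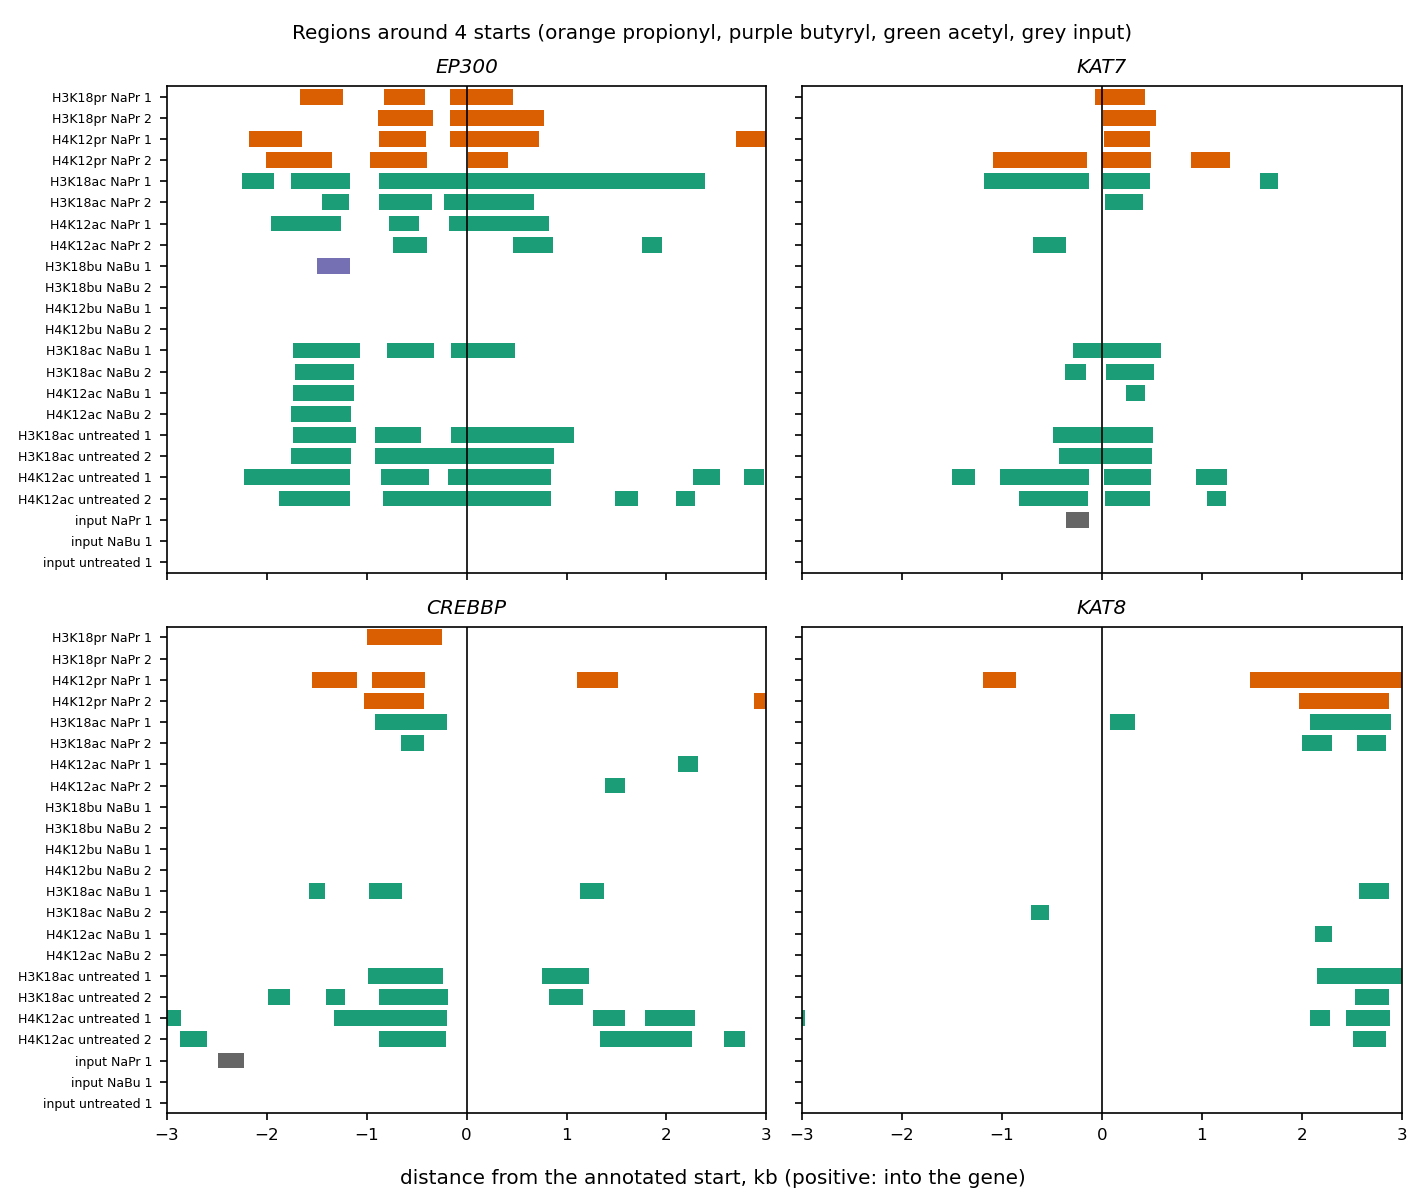
Regions within 3 kb of the annotated starts of EP300, KAT7, CREBBP and KAT8 in each library, each bar from the first to the last base of a region. The EP300 start is covered in 11 immunoprecipitated libraries and the KAT7 start in 4, no CREBBP region covers the start, and KAT8 regions lie mostly beyond 1 kb inside the annotated gene.

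The starts of the paralogues KAT2A and KAT2B, of SAGA and ATAC, were not covered in any of the 20 libraries, like those of CREBBP and KAT8. KAT2A, a 10.3 kb window, was covered to 2.15% and 16.2% by H3K18pr and to 25.5% and 9.88% by H4K12pr. In untreated cells H3K18ac covered 9.19% and 7.59% and H4K12ac 13.7% and 3.88%, so that replicates differed by more than the groups did. Its best-ranked region in any immunoprecipitated library, at 7.60% of the H4K12ac untreated replicate 1 list, had its summit 8517 bp from the start, in the downstream flank where the start of DHX58 also lies. KAT2B was the least covered of the 10 over a 116 kb window, at 0.293% and 1.54% for H3K18pr, 2.81% and 0.423% for H4K12pr, 0.753% and 0.573% for H3K18ac untreated and 0.724% and 1.32% for H4K12ac untreated. The NaPr input covered 1.14% of the same window, more than 17 of the 20 immunoprecipitated libraries did, and the other inputs none. Regions lay within 500 bp of its start in 6 libraries, and none ranked above 17.9% of its list.

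KAT5, the catalytic subunit of the TIP60 complex, was the most widely covered gene, in a window of 9.61 kb that it shares with RNASEH2C. Regions covered its start in 13 of 20 libraries, including all 4 propionyl and all 4 untreated acetyl libraries. H4K12pr covered 76.0% and 32.5% of the window and H3K18pr 20.9% and 12.9%. In untreated cells H4K12ac covered 37.0% and 26.9% and H3K18ac 30.2% and 22.1%, while in NaPr cells H4K12ac covered 11.2% and 5.83% and H3K18ac 49.4% and 5.94%. The best region had a fold of 23.1 and 21.1 in H3K18pr, 22.99 and 15.1 in H3K18ac untreated, and 8.45 and 6.81 in H4K12ac untreated. In the last group it spanned chr11:65711956-65712514 in replicate 1, over the annotated start and the whole RefSeq promoter printed above, with its summit 118 bp inside the gene. The large difference between H4K12pr replicates lay outside the start, where replicate 1 covered 74.0% and replicate 2 14.8%.

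KAT7, the catalytic subunit of HBO1 complexes, held the best-ranked region of the set. In untreated cells its H3K18ac region was at rank 90 and 197 of the lists, the top 0.117% and 0.127%, with a fold of 41.9 and 22.2. It spanned chr17:49788137-49789139 in replicate 1, over the start of KAT7 and most of the interval to the start of FAM117A, which it did not reach. H3K18ac in NaBu replicate 1 held a region at 0.267% of its list with a fold of 30.3, and replicate 2 had one at 12.2% with a fold of 7.85. The H3K18 regions were short: the window was covered to 2.67% and 2.32% by H3K18ac untreated and to 4.41% and 1.08% by H3K18pr. H4K12 marks covered it broadly, at 17.4% and 18.1% for H4K12pr and 16.3% and 16.5% for H4K12ac untreated, but at 4.81% and 5.33% for H4K12ac NaPr.

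KAT6A and KAT6B, paralogous catalytic subunits of complexes with BRPF proteins, were covered thinly in windows of 124.5 and 209.7 kb. KAT6A was covered to 1.51% and 1.42% by H3K18pr and 7.42% and 7.98% by H4K12pr, and in untreated cells to 1.08% and 1.18% by H3K18ac and 7.62% and 7.95% by H4K12ac. Its annotated start was covered in 1 library, but 13 had a region within 500 bp, on the upstream side. KAT6B was covered to 0.482% and 2.36% by H3K18pr, 3.84% and 4.80% by H4K12pr, 1.20% and 1.31% by H3K18ac untreated and 5.43% and 2.42% by H4K12ac untreated. The start of its Ensembl canonical transcript lies 1673 bp inside the annotated gene, and a region covered that start in 7 immunoprecipitated libraries, all acetyl, and in 2 of 3 inputs, against 2 immunoprecipitated libraries at the annotated start.

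KAT8, the H4K16 acetyltransferase of the MSL and NSL complexes, had no region over its annotated start in any library. The start of its canonical transcript, 3175 bp further in, was covered in 7 libraries, among them all 4 of untreated acetyl, and 12 libraries had a region within 500 bp of it. The best untreated regions of H4K12ac replicate 2 and H3K18ac replicate 2 lay there, at chr16:31117634-31117908 and chr16:31117637-31117911, with a fold of 5.62 and 10.1. The window was covered to 19.1% and 9.62% by H4K12pr but to 0 and 2.51% by H3K18pr. In untreated cells H3K18ac covered 11.6% and 4.32% and H4K12ac 8.46% and 8.95%, groups that overlapped.

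HAT1, which acts on new H4, was marked mostly on the gene side of its start. The start was covered in 4 of 20 libraries, but 16 had a region within 500 bp. In untreated cells H3K18ac covered both the start and 97.0% and 86.1% of the 1 kb on both sides of it, and H4K12ac covered 80.3% and 79.3% of it without touching the start. Over the whole window H3K18ac covered 3.77% and 3.31% and H4K12ac 19.7% and 15.6%. The propionyl values were 2.49% and 0.966% for H3K18pr and 15.1% and 13.1% for H4K12pr. The untreated input also had a region over the start and covered 12.8% of the 1 kb on both sides, and SLC25A12 is annotated on the other strand across the window.

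The first comparison asked whether the histone site set where on these genes a mark lay. Percent covered was compared between H3K18 and H4K12 over all 20 libraries within 5 strata of acyl group and treatment. The smallest possible p of the exact permutation test is 0.000257, and it is larger where a stratum is tied. H4K12 was higher on average at 9 of 10 genes, with a median difference (H3K18 minus H4K12) of −2.12 percentage points against 0.111 over the 18875 genes tested. The 2-sided exact p was 0.0270 at CREBBP, 0.0293 at EP300, 0.0355 at KAT6A and 0.0370 at KAT7, and 15.2% of all genes had a p under 0.05. After Benjamini-Hochberg adjustment over all genes these became 0.260, 0.269, 0.289 and 0.290, and no member and 0% of all genes passed 0.05, the smallest adjusted p being 0.0511. No member had libraries apart in all 5 strata, against 0.503% of genes with H3K18 higher and 0% with H3K18 lower. EP300, KAT2A, KAT6A, KAT6B and KAT7 had no butyryl coverage at either site, so they could not be apart in that stratum. Without the doubtful library the median of the members was −3.79, against −0.0368 over all genes. The mean differences of the members then ran from −6.41 at KAT5 to −0.0879 at KAT2B.

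Within strata the order of the 2 sites differed from group to group. In propionyl libraries both H4K12pr values exceeded both H3K18pr values at 8 of 10 genes, all but KAT2A and KAT2B, against 44% of all genes. In untreated acetyl libraries H4K12ac was higher without overlap at 6 genes (EP300, CREBBP, KAT6A, KAT6B, KAT7 and HAT1), against 38.1%. In NaBu acetyl libraries the order was turned at 4 genes, KAT5, KAT7, KAT8 and HAT1, with H3K18ac higher, against 48.1% of genes. H3K18ac, with the doubtful replicate 1 included, was higher at KAT2B alone in NaPr (40.3% of genes), and H3K18bu at HAT1 alone in NaBu (40.7%). Replicate 2 of H3K18ac NaPr alone lay above the H4K12ac mean at KAT2B and below it at the other genes. It covered 2.19% at EP300, 0.585% at CREBBP and 0.804% at KAT7, against H4K12ac means of 7.09%, 6.91% and 5.07%. The share of all genes was not taken for replicate 2 alone.

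The window was then divided by distance from the start. Outside 1 kb around the start, H4K12pr was above H3K18pr without overlap at 8 genes (43.9% of all genes), with medians over the members of 11.9% and 1.39%, and H4K12ac was above H3K18ac in untreated cells at 8 genes (43.5%), with medians of 9.53% and 0.725%. At EP300 this body coverage was 0.0903% and 1.09% for H3K18ac untreated against 15.03% and 11.1% for H4K12ac, and 0.632% and 0.702% for H3K18pr against 13.6% and 7.96% for H4K12pr. Within 1 kb of the start the medians over the members were 37.1% for H4K12pr and 22.2% for H3K18pr, and 43.0% for H4K12ac and 47.5% for H3K18ac in untreated cells. There H3K18ac was above H4K12ac in untreated cells at CREBBP, KAT2B, KAT6A and HAT1 (37.3% of genes) and below it at KAT7 (10.4%), and H3K18pr was below H4K12pr at KAT2A and KAT5 (23.1%). In NaPr acetyl, H3K18ac was above H4K12ac near the start at 6 genes (63.5%) and below at KAT2A (0.631%), and outside the start it was above at KAT2B (26.1%). The 6 were EP300, CREBBP, KAT5, KAT6A, KAT6B and KAT7. The call itself requires that replicate 2, the library not in doubt, lies above both H4K12ac libraries.

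**Figure D3:**
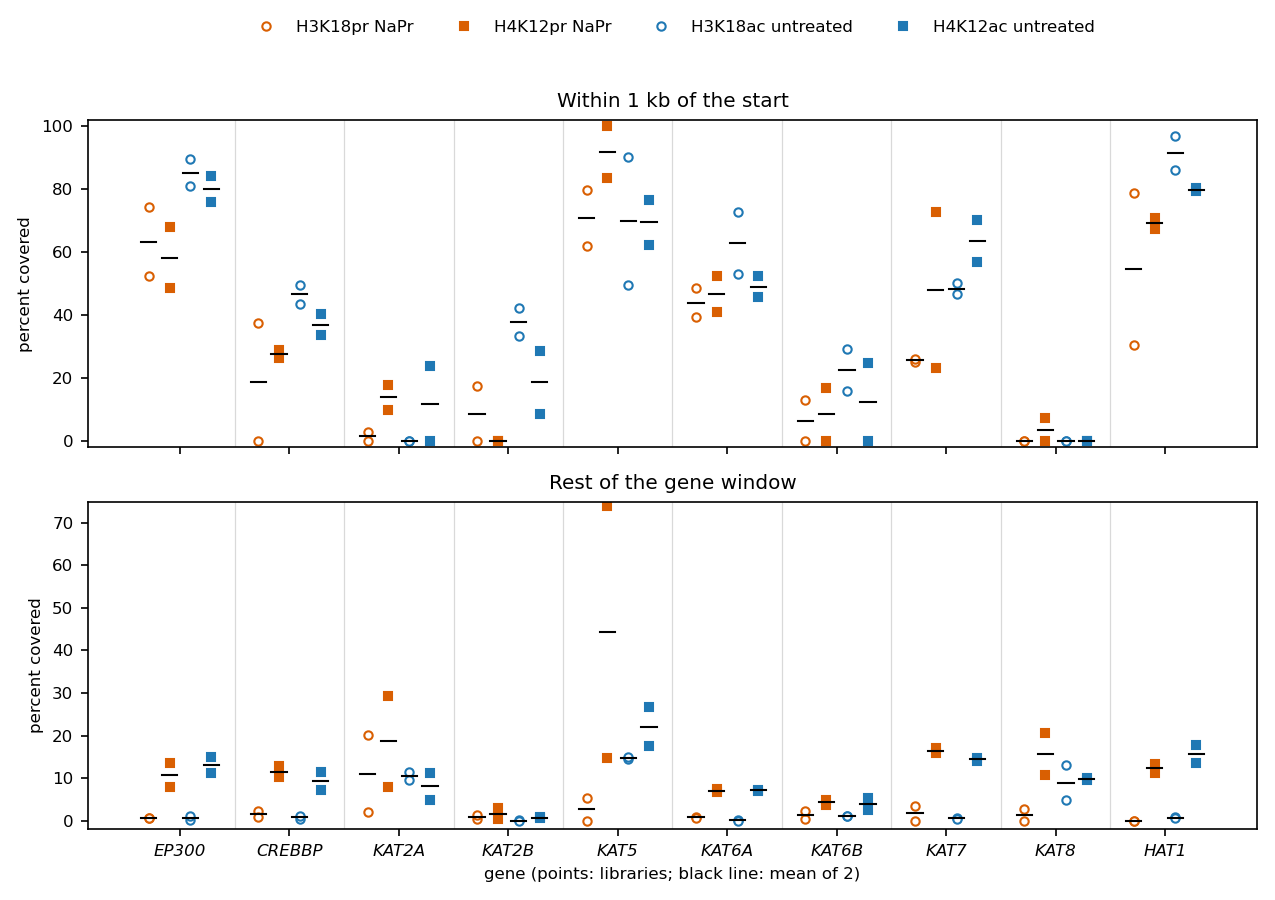
Percent covered within 1 kb of the annotated start (top) and over the rest of the window (bottom) for each gene, with 1 point per library and a black line at the mean of 2 replicates. Circles (H3K18) and squares (H4K12) mix in the top panel, while in the bottom panel squares lie above circles at 8 genes for propionyl and 8 for untreated acetyl.

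The average profile over the 10 starts gave the spread around them. H3K18pr coverage of the members was highest at 42.6% of bases 300 to 399 bp inside the gene, and had a mean of 2.98% from 2 to 5 kb inside, against 5.19% over all protein-coding genes. H4K12pr was highest at 59.4%, from −700 to −601 bp, and still 23.3% from 2 to 5 kb inside, against 11.8% over all genes. In untreated cells H3K18ac covered 7.45% from 2 to 5 kb and H4K12ac 12.7%, against 5.92% and 8.26% over all genes. With 10 genes, single regions show in these curves, and at KAT8 the canonical start lies between 2 and 5 kb inside.

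**Figure D4:**
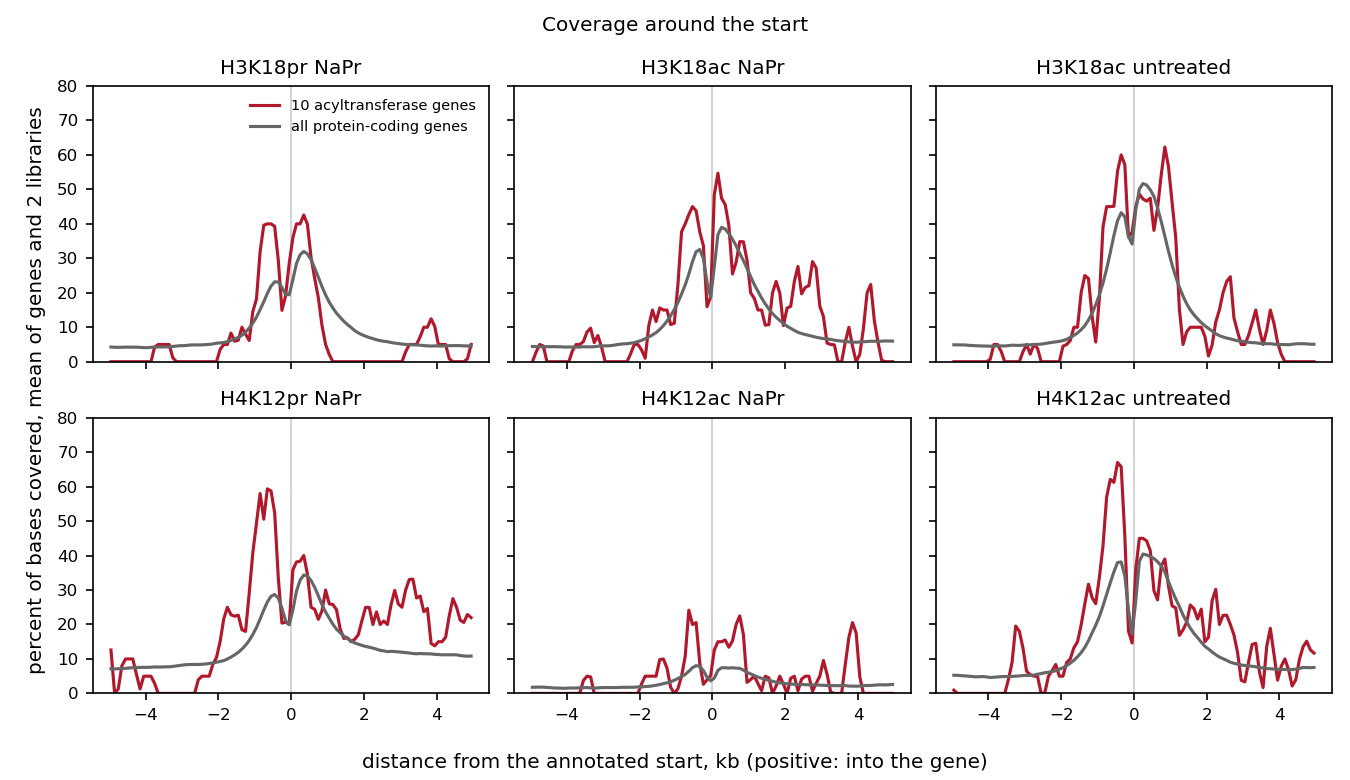
Percent of bases covered in 100 bp bins from 5 kb before to 5 kb after the annotated start, averaged over genes and the 2 libraries of a group, for the 10 acyltransferase genes (red) and all protein-coding genes (grey). H4K12pr of the 10 genes stays at a mean of 23.3% from 2 to 5 kb inside the genes and H3K18pr at 2.98%.

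The next question was whether propionyl and acetyl regions differed on these genes in NaPr cells. At H4K12 they did without overlap at all 10 genes, with H4K12pr higher, against 63.9% of all genes. KAT5 had the largest difference, at 54.3% ± 30.7 (SD, n = 2) against 8.53% ± 3.83, and KAT7 had 17.8% ± 0.497 against 5.07% ± 0.365. With coverage divided by the mean over all genes of each library, H4K12pr was instead lower without overlap at EP300, CREBBP, KAT6B and HAT1. EP300 then had 1.14 and 0.948 for H4K12pr against 1.92 and 2.98 for H4K12ac. Only KAT5 stayed higher without overlap, at 5.83 and 3.48 against 3.37 and 2.23. The share of all genes was not taken for this division. At H3K18, without this division, no gene had H3K18pr higher (13.1% of all genes). H3K18pr was lower at KAT8 and HAT1 (13% of all genes), where the doubtful library contributes to the acetyl mean. Against replicate 2 of H3K18ac alone, H3K18pr differed by −1.88 points at KAT8 and −1.53 at HAT1 and was higher at 7 of 10 genes, by 10.9 points at KAT5, with 4 genes apart and higher (50.3% of genes) and 2 lower (17.7%). Over both sites no member was apart in the same direction, against 8.12% of genes higher and 0.963% lower for propionyl, and the median difference was 1.26 points against 1.34 over all genes. Without the doubtful library 4 members were apart and higher, CREBBP, KAT5, KAT6A and KAT7, against 36.5% of genes. With 36 arrangements the smallest possible p of the exact permutation test is 0.056, so no gene can pass 0.05. The parts of the lower depth, the longer fragments and the batch of the propionyl libraries in these differences were not tested.

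No annotated member start was held by both replicates of one mark and neither of the other, which 10.2% of all starts did for H4K12pr over H4K12ac. At the canonical start, KAT7 was held by both H4K12pr libraries, with a fold of 7.70 and 7.51, and by neither H4K12ac library. Of all canonical starts, the H4K12pr libraries covered 23.3% and 18.4% and the H4K12ac libraries 3.12% and 2.06%. In single regions, 23 of the 340 united H4K12 regions over the members were held by both H4K12pr libraries and neither H4K12ac library. The other way there were 16, and 13 were held by all 4. At H3K18, with the doubtful library, 0 of 254 were held by propionyl only, 7 by acetyl only and 5 by all 4. No share over all regions was taken, so these counts describe the members only.

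Butyryl lists held few regions here. Over the 10 windows the H3K18bu libraries held 2 and 3 regions and the H4K12bu libraries 1 and 1, in lists of 8158 to 22497 regions. These lay over 2, 3, 1 and 1 of the 10 genes, against 34.3%, 31.3%, 20.7% and 18.3% of all genes. HAT1 had an H3K18bu region in both replicates, covering 0.754% and 0.324% of its window, and KAT5 had one in replicate 1, covering 3.86%, at rank 56.9% of its list. CREBBP and KAT2B had one in H3K18bu replicate 2, KAT2B one in H4K12bu replicate 1 and KAT8 one in H4K12bu replicate 2. No butyryl region covered an annotated start, against 0.904% to 2.89% of all starts in these libraries, and the KAT5 region of H3K18bu covered the canonical start of that gene. Compared with acetyl in NaBu cells, H3K18bu was lower without overlap at 7 genes (72.8% of all genes) and H4K12bu at KAT8 (25.1%). At H4K12 no other member could be called lower, since H4K12ac NaBu replicate 2 covered part of the KAT8 window only. KAT8 alone was lower at both sites, at 0 and 0.476% ± 0.673 against 4.38% ± 0.946 and 2.09% ± 1.34 (SD, n = 2), against 19.8% of genes lower and 0% higher. That call was lost with a q-value of 0.05, within 1 kb of the start, with rescaling and with equal numbers of regions, where the difference turned to 0.238 points. A difference could not be detected at genes where acetyl was also near 0, such as EP300 at 0 in H3K18ac NaBu replicate 2.

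The last comparisons asked how acetylation of these genes differed between treated and untreated cells. They share the untreated libraries, and the NaPr acetyl libraries also served against propionyl above. In NaPr, H4K12ac was lower than in untreated cells without overlap at 8 of 10 genes, all but KAT2A and KAT6B, against 71.9% of all genes. Examples were KAT7 at 5.07% ± 0.365 against 16.4% ± 0.129, HAT1 at 7.25% ± 0.223 against 17.6% ± 2.95 and KAT5 at 8.53% ± 3.83 against 32.0% ± 7.15 (SD, n = 2). H3K18ac overlapped between NaPr and untreated at all 10 genes, against 5.21% of genes apart and higher and 16.2% lower. Without the doubtful library it was lower at 7 genes, against 69.0% of genes lower and 10.7% higher. Over both sites no member was apart, against 11.6% of genes lower and 0.476% higher, and the median difference was −1.20 points against −1.86 over all genes. Without the doubtful library 5 members were apart and lower, CREBBP, KAT5, KAT7, KAT8 and HAT1, against 57.5% of genes. The annotated KAT7 start was covered in both untreated H3K18ac libraries and neither NaPr one, as were 7.76% of all starts, but its canonical start, 57 bp further in, was covered in both libraries of both groups. These libraries share a batch. The mean coverage of all genes was 2.61% to 11.7% in the NaPr acetyl lists, highest in the doubtful library, and 8.54% to 10.3% in the untreated ones. When each library was divided by its own mean, EP300, KAT6B and HAT1 were apart and higher in NaPr, against 10.2% of genes, and the median over the members, as rescaled, was 1.89 points.

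In NaBu, acetyl coverage was lower than in untreated cells at all 10 genes on average. H4K12ac was lower without overlap at 10 genes (80.8% of all genes) and H3K18ac at 8 (62.9%), and 8 genes were lower at both sites, all but KAT2B and KAT8, against 56.9% of genes lower and 0.256% higher. EP300 was covered to 1.43% and 0 by H3K18ac and 1.24% and 0 by H4K12ac in NaBu, against 1.90% to 16.4% in untreated cells. KAT5 kept 15.7% and 9.57% in H3K18ac and 1.79% and 0 in H4K12ac. The median difference was −6.28 points, against −4.23 over all genes. The EP300 and KAT5 starts were covered in both untreated H4K12ac libraries and neither NaBu one, and the HAT1 start in both untreated H3K18ac libraries and neither NaBu one, which 10.7% and 12.2% of all starts did. At the HAT1 canonical start, 13 bp further in, 1 of the NaBu H3K18ac libraries had a region. H4K12ac NaBu replicate 2, a list of 11680 regions, held 1 region over the 10 genes, in KAT8. Without it the count was 8 as well (56.9% of genes). The count was 5 with the 8158 best regions of each list (25.9% of genes), 5 without the flanks (53.3%) and 3 with each library divided by its own mean (19.1%). NaBu and batch cannot be told apart here, and its depth is unknown.

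**Figure D5:**
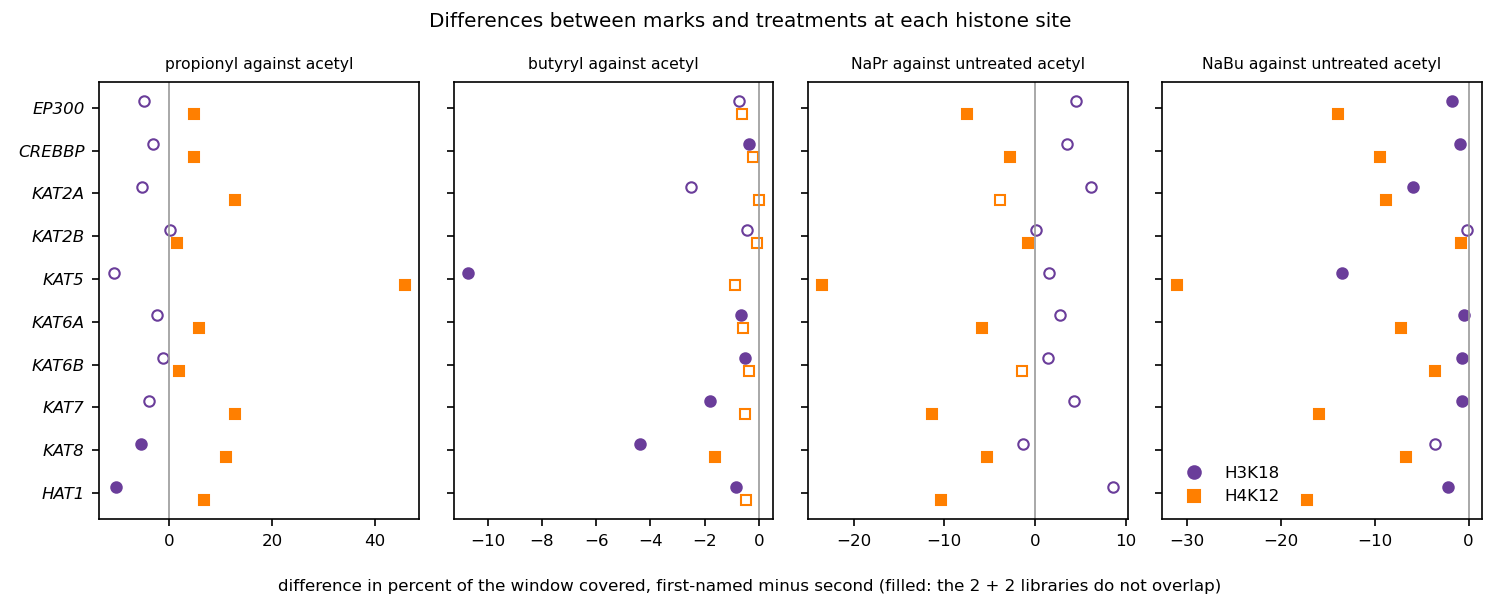
Difference in percent of the window covered (percentage points, first-named minus second) for each gene at H3K18 (circles) and H4K12 (squares), filled where the 2 libraries of one group do not overlap those of the other. All 10 squares are filled to the right for propionyl against acetyl, and all 10 are filled to the left for NaBu against untreated.

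The inputs held few regions over these genes. The NaPr input held 22 over 6 genes, the NaBu input 7 over 4 and the untreated input 9 over 5, with at most 1.86% of any window covered. KAT5 and KAT8 had none in any input. The untreated input had a region over the HAT1 start with a fold of 1.71 and one with its summit at −165 bp from the KAT2A start with a fold of 2.28. KAT6A had a region at rank 0.939% of the NaPr input list with its summit 13937 bp inside the gene, and KAT6B one at rank 1.504% of the NaBu input list, 194772 bp inside.

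The partners of these enzymes, 51 subunits of their complexes, came from a list fixed by name. None of the 51 was apart in the site comparison (0.503% and 0% of genes), also without the doubtful library. For propionyl against acetyl 1 was apart and higher and 1 lower, against 8.12% and 0.963% of genes. Without the doubtful library these were 20 and 1, against 36.5% and 1.64%. MRGBP, a subunit of the TIP60 complex, was covered to 29.9% and 25.6% by H3K18pr and 45.4% and 45.1% by H4K12pr, against 25.4% and 7.52% by H3K18ac and 2.55% and 3.47% by H4K12ac. SUPT20H of SAGA was lower, with a mean difference of −3.70 points, or −1.91 without the doubtful library. For butyryl against acetyl 13 of 51 were lower (19.8% of genes), with −10.9 points at MRGBP, −6.97 at TADA3 and −6.85 at ING4. For NaPr against untreated EPC2 alone was apart, 0.437 points higher (0.476% of genes higher and 11.6% lower), and without the doubtful library 1 was higher and 37 lower (1.71% and 57.5%). For NaBu against untreated 39 of 51 were lower (56.9% of genes), led by MSL1 at −23.2 points, DMAP1 at −20.2 and TAF6L at −19.7, with a median of −6.95 points over the list and −4.23 over all genes. The annotated start was covered at 37 and 32 of the 51 partners in H3K18ac untreated, 72.5% and 62.7%, against 42.2% and 34.1% of all genes. Of the 10 acyltransferase starts 4 and 5 were. At the canonical start, 6 and 7 of these 10 were covered in the same libraries, against 45.0% and 38.8% of all canonical starts.

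Across libraries the members varied together to different degrees. Coverage was divided by the mean over all genes of each library, and the correlation was taken over the 20 immunoprecipitated libraries, which share depth and batch and are no independent samples. Pearson's r was 0.965 between EP300 and CREBBP, 0.951 between KAT6A and KAT7 and 0.934 between EP300 and HAT1. KAT2B had an r of −0.396 to KAT8 and −0.357 to KAT5. Its highest divided value, 0.838 in H4K12bu replicate 1, came from 1 region in a list with a mean of 0.407%. The highest of KAT8, 3.30 in H4K12bu replicate 2, also came from 1 region, in a list with a mean of 0.288%. The part of these near-empty lists in the r values of KAT2B and KAT8 was not tested. Each gene is itself part of the mean of the members, which raises its r to that mean. Against the mean of the members, r was 0.907 at KAT7, 0.898 at HAT1, 0.888 at EP300, 0.120 at KAT8 and −0.309 at KAT2B. Without the doubtful library, over 19 libraries, these were 0.910, 0.891, 0.896, 0.130 and −0.300, and EP300 and CREBBP kept an r of 0.965. Among the other protein-coding genes most like the mean of the members over 20 libraries were RNASEH1 (r = 0.976), ACLY (0.973), PMM2 (0.957) and GANAB (0.955). These were picked for the highest r among all other genes, so their r is not comparable with that of the members.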

How the data were processed

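Genomic regions enriched for H3K18 and H4K12 acyl marks in SW480 cells were taken from the lists that the authors deposited, 1 per library, in hg38. Per the labels and the submitters' processing notes, reads were converted with bcl2fastq 2.17.1, trimmed with cutadapt 1.8.1, aligned with Bowtie2 2.3.1 and called with MACS2 2.1.0 at a p of 0.01, without pooling replicates. The deposited columns hold fold over background (a ratio) and the −log10 p-value and −log10 q-value that the authors' caller gave each region. Which control served for the input lists is not given in the sources used here. Names of the NaBu acetyl lists carry a tag that reads as control, whereas the labels say NaBu, and the labels were followed. Batches are run tags in the list names.

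From these lists the number of regions, percent of window covered (GENCODE 44 body with 1 kb flanks, overlap of at least 1 bp), best rank by −log10 p-value and occupancy of the start were computed in Python 3.11.15 with numpy 2.4.6, pandas 2.3.3 and scipy 1.17.1, and the code was tested on simulated data. Groups were called apart where their libraries did not overlap in any stratum, in 1 direction. Exact permutation tests were 2-sided, within strata, adjusted by Benjamini-Hochberg over all protein-coding genes with a region. The members and lists were chosen with earlier results of these data known. The text names the 10 members, up to 6 partners called per comparison (the 3 highest and 3 lowest mean differences) and, of the 5 genes most like the members' mean, 4, since 1 is not reported here. Alternatives were a q-value of 0.05, equal numbers of regions, other windows and start sites, rescaling, leaving out regions over input peaks, leaving out each replicate and a replicate block.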

Additional observations from a re-analysis of the deposited data

Results flagged for a closer look

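Differences that went opposite ways without overlap in 2 strata were picked out at 4 genes, and the difference between the strata was not tested. For propionyl minus acetyl in NaPr cells, KAT8 differed by 10.9 percentage points of its window at H4K12 and −5.43 at H3K18, and HAT1 by 6.84 and −10.4. The H3K18 values include the doubtful replicate 1 of H3K18ac NaPr, and against replicate 2 alone they were −1.88 at KAT8 and −1.53 at HAT1.

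For H3K18 minus H4K12, KAT5 differed by 11.8 points in NaBu acetyl and −37.4 in propionyl. KAT7 differed by 1.30 in NaBu acetyl, −15.04 in propionyl and −13.9 in untreated acetyl. KAT8 differed by 2.296 in NaBu acetyl and −13.1 in propionyl. HAT1 differed by 0.539 in NaBu butyryl, 0.902 in NaBu acetyl, −12.4 in propionyl and −14.1 in untreated acetyl. The NaBu libraries had shorter lists and a batch of their own, whose part in these values was not tested.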

How the results depend on the processing

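Values below are medians over the 10 genes in percentage points, or counts of genes whose libraries were apart. With equal numbers of regions, 2 genes were apart and higher for propionyl against acetyl (12.0% of all genes). For butyryl against acetyl 0 were lower (13.1%), with a median of 0. For NaPr 3 were lower (12.3%) and for NaBu 5 (25.9%), the latter with a median of −0.67. The KAT8 butyryl difference was 0.238 against −2.997. Within 1 kb of the start the median was −8.96 for butyryl with 0 genes lower (15.3% of all genes). For NaPr it was −24.1 with 2 lower (23.4%). It was −34.9 for NaBu and 7.20 for H3K18 against H4K12. With each library divided by its mean, 2 genes were lower for propionyl (7.96% of all genes), 0 lower for butyryl (3.04%), 3 higher for NaPr (10.2%) and 3 lower for NaBu (19.1%). The rescaled medians turned to −1.45 for propionyl (1.26 before) and 1.89 for NaPr (−1.20 before), and the NaBu median was −3.48. A q-value of 0.05 left 0 genes lower for butyryl (8.81% of all genes), and windows without flanks left 5 lower for NaBu (53.3%). Starts covered numbered 91 within 500 bp, 76 at any transcript start and 60 at the canonical start, against 35 of 200 at the annotated start. Over all genes, the share in single libraries ran from 0.904% to 42.2% at annotated starts, with a median of 17.0%. This share ran from 5.80% to 64.2% within 500 bp and from 0.574% to 45.0% at canonical starts. For any transcript start it was not taken. The canonical start and the window outside the start were chosen after seeing the data. The cause of these shifts was not tested.

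Leaving out 1 library at a time, the median ran from −0.0996 to 3.03 for propionyl (0 to 4 genes higher, 0 lower), from −0.945 to −0.39 for butyryl (1 to 7 lower), from −4.20 to 0.333 for NaPr (0 to 5 lower), from −7.25 to −5.06 for NaBu (8 to 10 lower) and from −3.79 to −1.34 for H3K18 against H4K12. The 7 for butyryl came without H4K12ac NaBu replicate 2 (61.1% of all genes). The 4 and 5 came without H3K18ac NaPr replicate 1 (36.5% and 57.5%), and the 10 for NaBu without H3K18ac NaBu replicate 1 (69.9%). Replicate numbers are not said to pair libraries, and correlations of the replicate deviations ran from 0.0541 to 0.350. With the replicate block, 1 gene was lower for NaPr (19.4% of all genes) against 0 without it (11.6%). The smallest adjusted p for H3K18 against H4K12 by the exact permutation test was then 0.163. The depth of the butyryl and NaBu libraries is unknown, so what it limits could not be set.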
